A study of Mus musculus with 18 samples.

Results

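Circular RNAs (circRNAs) hosted by 5 genes of sequence-specific transcription factors, Etv6, Foxp1, Zeb1, Nfix and Nfib, were described in mouse liver. A circRNA was taken when its 2 joined ends lay at exon ends of, or inside, any of these 5 genes, which gave 10 circRNAs out of 474 listed, and 5 host genes out of 414. Etv6 hosted 4 of them, Foxp1 3, and the other genes 1 each. The members were chosen by the position of their ends and, through the listing itself, selected on detection: every listed circRNA was above 0 in at least 9 of the 18 libraries. Of the 10, 4 lay just inside that limit, at 9 libraries: Etv6 alternative exon, Etv6 alternative exon to exon 2, Foxp1 short upstream and Nfib. CircRNAs seen in fewer libraries were not analysed here. The genes were also proposed with results of these data known, among them the levels of the Etv6 circRNA from intron 1 to exon 2. The values of that circRNA are therefore a description.

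Liver total RNA of 18 male C57BL/6 mice, bought at 6 weeks of age, was sequenced after removal of ribosomal RNA, with 6 mice from each of 3 groups treated for 12 weeks. The treated mice numbered 45, 15 per group, so the libraries cover a part of each group. The Control mice were injected intraperitoneally with corn oil and given distilled water by mouth. The Cirrhosis mice were injected with 10% carbon tetrachloride (CCl4), a hepatotoxin used to produce liver fibrosis, in corn oil, and given water. The Cirrhosis-PTH mice received the same CCl4 injections and daily oral Pien Tze Huang (PTH), a traditional Chinese medicine, at 0.25 mg/g. All 3 groups thus shared the injections of corn oil at 10 µl/g, 2 times a week, and no group received PTH without CCl4.

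A circRNA forms when the spliceosome joins the donor at the end of an exon back to the acceptor at the start of the same or an upstream exon, and it is recognised by reads that cross this back-splice junction. Its level is therefore not the level of the host gene's mRNA, nor of its protein. Etv6 encodes a repressor of the ETS family with roles in blood cell formation and vessel maintenance. Foxp1 encodes a forkhead repressor that acts in lymphocyte, heart and endothelial development. Zeb1 encodes a zinc finger and homeobox repressor known for silencing epithelial genes during epithelial-mesenchymal transition. Nfix and Nfib encode nuclear factor I proteins, which bind a palindromic motif as dimers and regulate differentiation in many tissues.

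Each circRNA is given below by its joined ends, in GRCm38 coordinates, with the exons of the GENCODE M21 annotation. The Nfix circRNA (chr8:84771784-84772315, minus strand) was exon 2 of Nfix-201 closed on itself, 532 bases that are all coding, in the part of the gene that encodes most of the DNA-binding domain. The Nfib circRNA (chr4:82350389-82359800, minus strand) joined exon 6 back to exon 4 of Nfib-201, with 309 bases in 3 exons, all coding and downstream of the exon that matches Nfix exon 2. The junctions are shown because they are the sequences that the reads must cross. The last bases of the circle before the junction are in lower case and the first bases after it in capitals.
Nfix exon 2: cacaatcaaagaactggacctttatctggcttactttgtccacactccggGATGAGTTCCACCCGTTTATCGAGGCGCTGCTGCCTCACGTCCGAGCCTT
Nfib exons 4 to 6: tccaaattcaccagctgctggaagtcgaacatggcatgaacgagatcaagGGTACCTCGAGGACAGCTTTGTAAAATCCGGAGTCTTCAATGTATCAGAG

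The nuclear factor I genes are paralogs, and each has an exon of the same length in the place of Nfix exon 2. Of its 532 bases, 418 were identical in Nfia exon 2 (78.6%), 418 in Nfib exon 2 (78.6%) and 436 in Nfic exon 2 (82.0%). If those exons were closed on themselves, the 100 bases around the junction would differ from the Nfix junction at 29, 30 and 22 bases. They are printed below with the bases that differ from Nfix in capitals, to show how far a read over this junction can be told apart between the genes.
Nfia same exon: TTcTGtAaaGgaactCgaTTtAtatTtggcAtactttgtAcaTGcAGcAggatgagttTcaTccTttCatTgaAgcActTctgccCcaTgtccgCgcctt
Nfib same exon: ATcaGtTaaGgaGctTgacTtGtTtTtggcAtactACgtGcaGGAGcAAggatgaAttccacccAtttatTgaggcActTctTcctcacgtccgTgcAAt
Nfic same exon: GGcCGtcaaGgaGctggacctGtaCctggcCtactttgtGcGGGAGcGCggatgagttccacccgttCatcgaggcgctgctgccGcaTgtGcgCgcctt

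Etv6 lies on the plus strand of chromosome 6, and its 4 circRNAs used only 2 donors. They lay 30.8 and 101.7 kb from the annotated start of the gene, which runs to 234.5 kb. The first donor was the end of an alternative exon of 159 bases, non-coding exon 2 of Etv6-202. The circRNA called here Etv6 alternative exon (chr6:134066307-134066465) was this exon closed on itself. The circRNA from intron 1 to the alternative exon (chr6:134062064-134066465) used the same donor, with an acceptor at no annotated exon end, 4243 bp upstream of the acceptor of that exon. The other donor was the end of the exon of 133 bases that is exon 2 of Etv6-201, where it is coding, and exon 3 of Etv6-202. It was joined to the acceptor of the alternative exon in the circRNA from the alternative exon to exon 2 (chr6:134066307-134137417), with 292 exonic bases. In the circRNA from intron 1 to exon 2 (chr6:134115220-134137417) it was joined to an unannotated acceptor, 22065 bp upstream of the acceptor of exon 2. The circRNAs that begin at the alternative exon share the bases in capitals and differ in the donor before them.
Etv6 alternative exon: gcagaattaacacagCCTCGAGGGACTGGT
Etv6 alternative exon to exon 2: tgccaacacacctgcCCTCGAGGGACTGGT

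Foxp1 lies on the minus strand of chromosome 6, and its 3 circRNAs shared a non-coding exon of 130 bases (chr6:99435216-99435345), exon 1 of Foxp1-204 and exon 2 of Foxp1-220. The long upstream circRNA (chr6:99435216-99456580) and the short upstream circRNA (chr6:99435216-99439456) joined the donor of this exon to unannotated acceptors. These lay 20184 bp and 3060 bp from the nearest annotated start of an exon, which may be the start of a transcript. The downstream circRNA (chr6:99429210-99435345) joined the acceptor of this exon to an unannotated donor 6006 bp from the nearest annotated donor. The Zeb1 circRNA (chr18:5633204-5641518, plus strand) lay inside intron 1 of Zeb1-201, and is called here the intron 1 cassette; in Zeb1-206 it takes in exon 2. Its acceptor was that of a 154-base exon of Zeb1-212, a transcript annotated as subject to nonsense-mediated decay, and its donor that of a 137-base exon of Zeb1-203, Zeb1-206 and Zeb1-211. No annotated transcript held both ends.

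**Figure D1:**
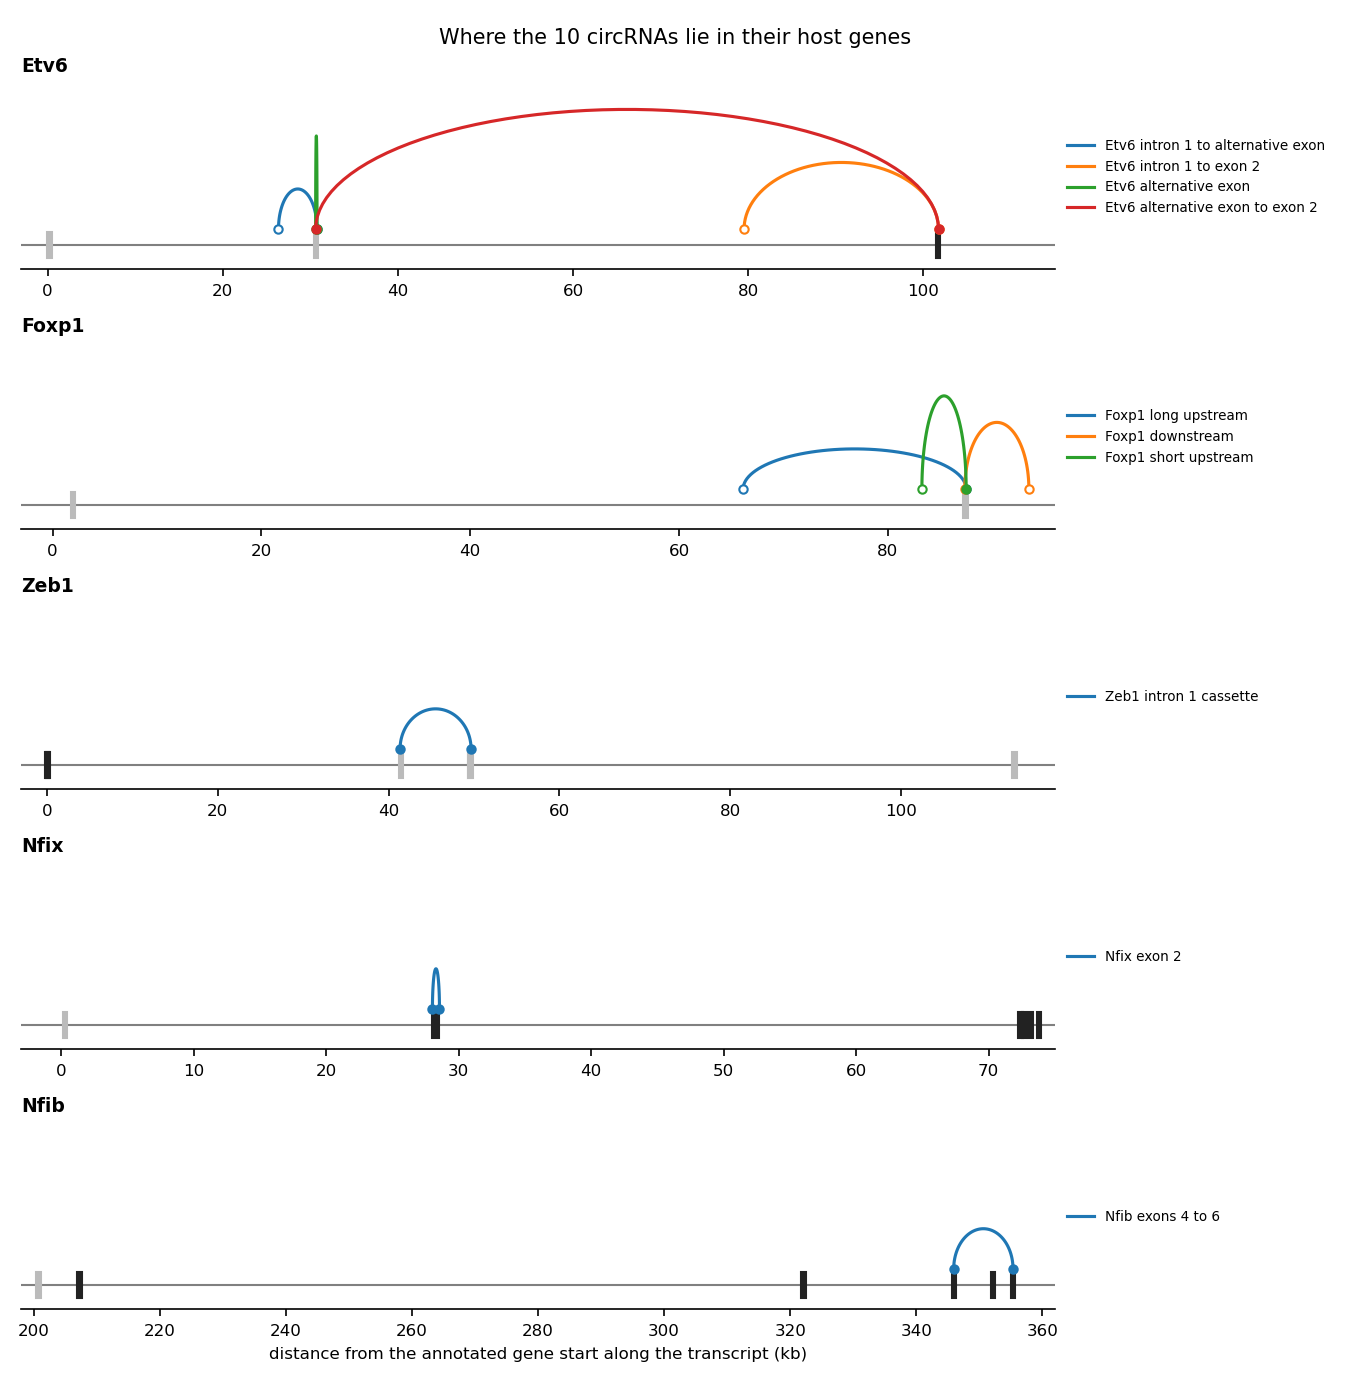
Position of the 10 circRNAs in the 5 host genes, with distance from the annotated gene start along the transcript in kb on each horizontal axis. Boxes are exons of the transcript drawn (dark where mostly coding, light where not, widened where too thin to see), arcs join the ends of a circRNA, filled points are annotated exon ends and open points are not; 5 of the 10 arcs have an open point, all in Etv6 and Foxp1.

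Of the 10 circRNAs, 5 had only 1 end at an annotated exon end and 5 had both, whereas 22 of the other 464 listed circRNAs (4.74%) had only 1. The 5 unannotated ends are called acceptor or donor by their position on the host's strand. Their flanking bases were not checked for splice sites. Etv6 was the only host with 4 or more listed circRNAs, and 8 hosts, Etv6 and Foxp1 among them, had 3 or more. These are counts without a test, since the genes were chosen with the listing in view.

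The depth was low. The deposited values are CPM (reads scaled to a common library total), from which whole reads were recovered. The 474 listed circRNAs took 794 (Control 1) to 8431 (Cirrhosis-PTH 6) back-splice reads per library, and the median value stood for 2 reads. A value of 0 allows up to 3 reads, which is 0.103 to 1.11 CPM depending on the library, for counting error only. CircRNAs of marker genes of other cells were few, and none passed an adjusted p of 0.05 in limma in any comparison. The 3 circRNAs of the macrophage markers Adgre1 and Mertk, the only hosts among 16 such markers, summed to 0.545 ± 0.348 CPM (SD, n = 6) for Control, 3.07 ± 2.34 for Cirrhosis and 0.788 ± 0.420 for Cirrhosis-PTH. The single lymphocyte marker host, Ikzf1, stood at 0.514 ± 0.351, 0.901 ± 1.03 and 0.373 ± 0.321 CPM in the same order, and the hepatocyte marker hosts Egfr and Abcb11 summed to 1.82 ± 1.42, 1.57 ± 1.14 and 2.05 ± 1.43. No circRNA of a stellate cell, endothelial cell, cholangiocyte or erythroid marker was among those listed. In bulk liver, fewer cells of a type and less RNA per cell cannot be told apart.

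Because each circRNA has a single back-splice junction, levels were compared between genes as CPM per junction. Over all 18 libraries, Nfix exon 2 stood highest at 2.41 ± 1.83 CPM (SD, n = 18), rank 11 of 474 by mean. The Zeb1 circRNA followed at 1.11 ± 0.846 CPM, rank 56. The most abundant circRNA of Etv6, from intron 1 to the alternative exon, stood at 0.650 ± 1.15 CPM, and that of Foxp1, the long upstream one, at 0.407 ± 0.425. Nfib stood at 0.272 ± 0.481 CPM, rank 337. The order Nfix, Zeb1, Etv6, Foxp1, Nfib is one of means of the most abundant circRNA of each gene. Each differed from its neighbour by less than the SD of the higher one. The order depends on this choice. Summed over its 4 circRNAs, Etv6 stood at 1.63 ± 1.60 CPM, above Zeb1, and Foxp1 over its 3 at 0.788 ± 0.615. Nfix and Zeb1 were each above 0 in 17 libraries, and the other 8 circRNAs in 9 to 12.

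**Figure D2:**
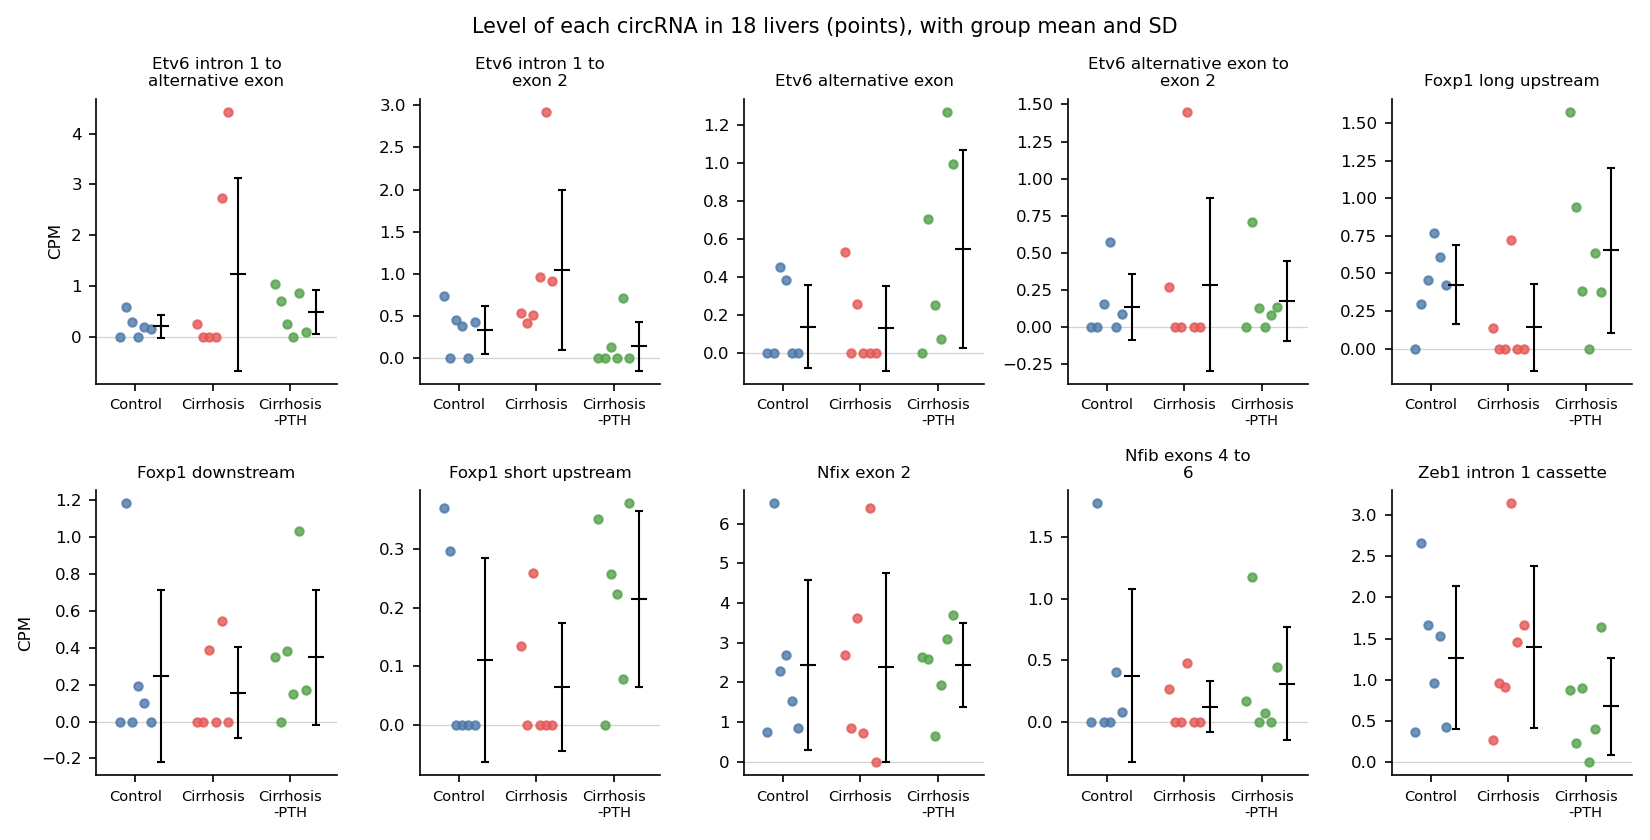
Level in CPM (vertical axis, a separate linear scale in each panel) of each of the 10 circRNAs in the 6 livers of each group (points), with the group mean and SD beside them (bar). The values of the groups overlap in all panels, many points lie at 0, and for Etv6 intron 1 to exon 2 all 6 Cirrhosis livers are above 0 against 2 of 6 in Cirrhosis-PTH.

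Beginning with the ETS repressor, the Etv6 circRNA from intron 1 to exon 2 was detected in all 6 Cirrhosis livers, in 4 Control livers and in 2 Cirrhosis-PTH livers. In Control it ranged from 0 to 0.739 CPM with a median of 0.404 (mean 0.334 ± 0.287, 12 reads). In Cirrhosis it ranged from 0.424 to 2.92 CPM with a median of 0.729 (mean 1.05 ± 0.945, 37 reads). In Cirrhosis-PTH the median was 0 and the highest value 0.715 CPM (mean 0.141 ± 0.286, 10 reads). All 6 Cirrhosis livers were above the Control mean, and all 6 Cirrhosis-PTH livers were below the Cirrhosis mean, but the groups overlapped. Cirrhosis-PTH 5 held 9 of the 10 reads of its group. The 4 Cirrhosis-PTH libraries at 0 allow up to 0.103 to 0.708 CPM.

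The circRNA with the same unannotated kind of start but the upstream donor, from intron 1 to the alternative exon of Etv6, had another distribution. Its values ran from 0 to 0.592 CPM in Control with a median of 0.187 (mean 0.211 ± 0.221). In Cirrhosis 3 livers were at 0, while Cirrhosis 6 reached 4.43 CPM and Cirrhosis 5 2.74, so that the mean of 1.24 ± 1.90 stood far above the median of 0.134. Without Cirrhosis 6 the mean was 0.601 CPM. In Cirrhosis-PTH the values ran from 0 to 1.05 CPM with a median of 0.482 (mean 0.499 ± 0.437).

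The alternative exon closed on itself was seen in 2 Control and 2 Cirrhosis livers, with highest values of 0.455 and 0.536 CPM and a median of 0 in both groups. It was above 0 in 5 of 6 Cirrhosis-PTH livers, with a median of 0.482 and a highest value of 1.27 CPM in Cirrhosis-PTH 5 (mean 0.551 ± 0.521). It reached the listing minimum of 9 libraries through that group, so its count of livers there was partly fixed by the listing. The last Etv6 circRNA, from the alternative exon to exon 2, was the rarest of the 4, with 5, 8 and 9 reads in Control, Cirrhosis and Cirrhosis-PTH. Its means of 0.135 ± 0.224, 0.286 ± 0.580 and 0.176 ± 0.268 CPM were below their SD in each group.

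Summed over its 4 circRNAs, Etv6 reached 0.820 ± 0.454 CPM for Control, 2.71 ± 2.28 for Cirrhosis and 1.37 ± 1.02 for Cirrhosis-PTH, and every liver was above 0. The Cirrhosis sum had a median of 2.01 CPM, with Cirrhosis 5 at 5.66 CPM and the next liver at 5.35. The shares within this sum are given as a description. In the pooled reads, the circRNA from intron 1 to exon 2 made up 40.0% of 30 reads in Control, 40.2% of 92 in Cirrhosis and 10.5% of 95 in Cirrhosis-PTH. The alternative exon alone made up 16.7%, 6.52% and 53.7%. Pooling weights the deep libraries: of the 51 Cirrhosis-PTH reads of the alternative exon, 29 came from Cirrhosis-PTH 6 and 16 from Cirrhosis-PTH 5. It also weights livers with high values: of the 37 Cirrhosis reads of intron 1 to exon 2, 16 came from Cirrhosis 5. The shares were not tested, the levels of intron 1 to exon 2 were known when the genes were chosen, and the alternative exon was listed through its detection in Cirrhosis-PTH. Over the 18 libraries the 4 circRNAs showed little common variation, with Pearson r from -0.24 to 0.38 between their log2 levels (a description, in libraries that share depth).

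**Figure D3:**
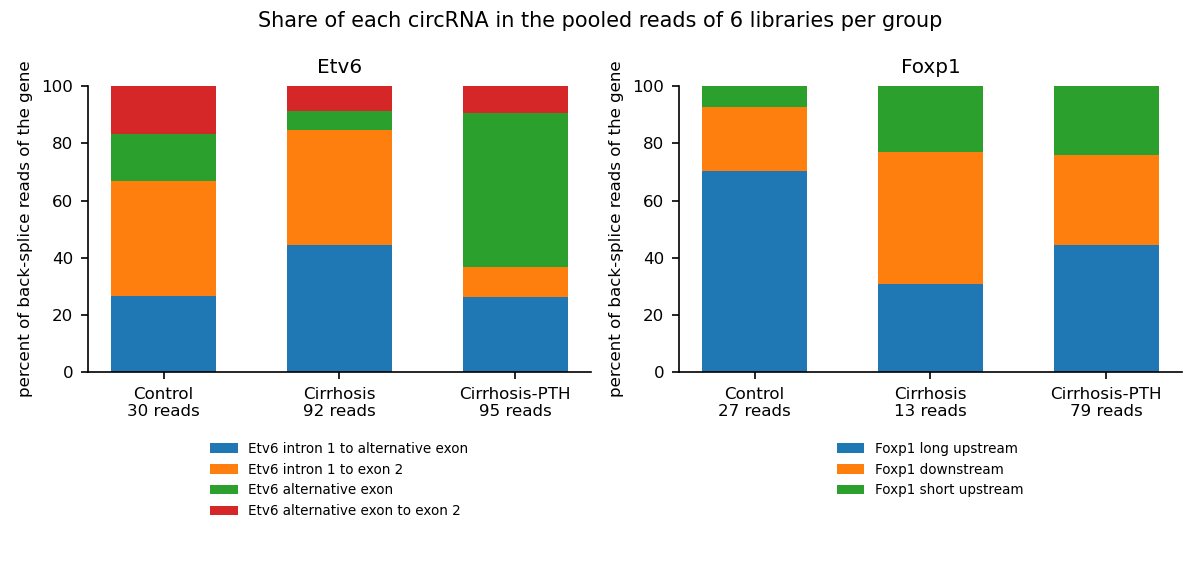
Share in percent (vertical axis) of each circRNA in the back-splice reads of Etv6 (left) and Foxp1 (right), pooled over the 6 libraries of each group, with the number of reads under each bar. In Etv6 the alternative exon, listed through its detection in Cirrhosis-PTH, takes 53.7% of the Cirrhosis-PTH reads against 6.52% in Cirrhosis, from 6 reads. Of its 51 Cirrhosis-PTH reads, 29 came from Cirrhosis-PTH 6 and 16 from Cirrhosis-PTH 5. The Foxp1 bar for Cirrhosis rests on 13 reads.

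For the forkhead repressor gene, the long upstream Foxp1 circRNA was above 0 in 5 Control, 2 Cirrhosis and 5 Cirrhosis-PTH livers. Control values ran from 0 to 0.767 CPM with a median of 0.440 (mean 0.426 ± 0.265, 19 reads). In Cirrhosis 4 livers were at 0 and the highest was Cirrhosis 4 at 0.725 CPM (mean 0.143 ± 0.290, 4 reads). The Cirrhosis mean without Cirrhosis 4 was 0.0268 CPM. Cirrhosis-PTH values ran from 0 to 1.58 CPM with a median of 0.510 (mean 0.653 ± 0.550, 35 reads). The Cirrhosis livers other than Cirrhosis 4 were at 0 or 0.134 CPM, and a liver at 0 occurred in each group. The 4 Cirrhosis libraries at 0 allow up to 0.318 to 0.553 CPM.

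The other Foxp1 circRNAs were rarer. The downstream one had means of 0.246 ± 0.466, 0.156 ± 0.247 and 0.348 ± 0.364 CPM in Control, Cirrhosis and Cirrhosis-PTH, and was above 0 in 3, 2 and 5 livers. The short upstream one had 0.111 ± 0.173, 0.0655 ± 0.109 and 0.215 ± 0.149 CPM, from 2, 3 and 19 reads, and was above 0 in 2, 2 and 5 livers. It stood at rank 468 of 474 by mean and, like the Etv6 alternative exon, reached the listing minimum through the Cirrhosis-PTH group. The sum of the 3 was 0.783 ± 0.535 CPM for Control, 0.365 ± 0.322 for Cirrhosis, where 2 livers were at 0, and 1.22 ± 0.680 for Cirrhosis-PTH.

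The Zeb1 circRNA was present in every Control and Cirrhosis liver. Control values ran from 0.370 to 2.66 CPM with a median of 1.24 (mean 1.27 ± 0.871, 46 reads), and Cirrhosis values from 0.268 to 3.14 CPM with a median of 1.21 (mean 1.40 ± 0.983, 48 reads). Cirrhosis-PTH values ran from 0 in Cirrhosis-PTH 4 to 1.65 CPM in Cirrhosis-PTH 6, with a median of 0.637 (mean 0.676 ± 0.593, 66 reads). Cirrhosis-PTH 6, the deepest library, gave 48 of those 66 reads, and 5 of 6 Cirrhosis-PTH livers were below the Control mean. Control and Cirrhosis covered almost the same range.

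Among the nuclear factor I genes, Nfix exon 2 had nearly equal means of 2.43 ± 2.14, 2.38 ± 2.39 and 2.43 ± 1.06 CPM in Control, Cirrhosis and Cirrhosis-PTH. Behind these, Control ran from 0.739 to 6.51 CPM with a median of 1.90, and Cirrhosis from 0 to 6.39 with a median of 1.76. Cirrhosis-PTH ran from 0.642 to 3.70 CPM with a median of 2.61. Cirrhosis 6, where Nfix was at 0 and which allows up to 0.553 CPM, detected the fewest circRNAs of all libraries (223 of 474) and was the library with the highest value of the Etv6 circRNA from intron 1 to the alternative exon. Nfib was above 0 in 3, 2 and 4 livers, with means of 0.378 ± 0.703, 0.125 ± 0.206 and 0.313 ± 0.457 CPM. Without Control 2, which stood at 1.78 CPM from 6 reads, the Control mean of Nfib was 0.0985 CPM.

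Differences between groups were fitted with limma on log2(CPM + 0.143) for all 474 circRNAs, with Benjamini-Hochberg adjustment, and are given as log2 differences on that scale, which understates changes of low values. The first comparison, Cirrhosis against Control, asks what CCl4 changed. None of the 10 circRNAs passed an adjusted p of 0.05 (background 0%), and none had an unadjusted p under 0.05 (background 12.2%, 58 of 474). The largest differences were those of Etv6 intron 1 to exon 2, at 1.36 ± 0.73 (SE, limma adjusted p = 0.444), and of the long upstream Foxp1 circRNA, at -1.20 ± 0.73 (limma adjusted p = 0.532). Neither exceeded the replicate spread by this test. By edgeR and DESeq2 on the recovered reads the Foxp1 difference was -2.35 and -2.58, with an unadjusted p under 0.05 in both (background 6.12% and 8.02%) and an adjusted p of 0.749 in edgeR. Among the members, DESeq2 gave an adjusted p only for Nfix and Zeb1 in this comparison. Over all circRNAs edgeR called 0% and DESeq2 0.211% at the adjusted threshold, where those without an adjusted p counted as not called. Nfix differed by -0.49 ± 0.59 and Zeb1 by 0.12 ± 0.69.

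Differences above 0 were found for 4 of the 10 (Etv6 3, Zeb1 1) against 56.1% of all, and the median was -0.10 against 0.12 over all 474. These signs depend on the scale. Each library was also centred on its median log2 level over the 26 circRNAs above 0 in all 18 libraries. With this centring the median over all circRNAs moved from 0.12 to -0.46 and the share above 0 from 56.1% to 28.9%. The members above 0 went from 4 to 2, Zeb1 (-0.46) and Etv6 alternative exon to exon 2 (-0.42) having changed sign. No member had groups that did not overlap, where 0.211% of all circRNAs did.

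The next comparison, Cirrhosis-PTH against Cirrhosis, asks what PTH changed under CCl4. Again 0 of the 10 passed the adjusted threshold (background 0%), and 2 had an unadjusted p under 0.05 (background 7.17%, 34 of 474). Etv6 intron 1 to exon 2 differed by -2.20 ± 0.73 (95% interval -3.64 to -0.77, limma adjusted p = 0.386), the second smallest p of the table. This difference was known when the genes were chosen, so it is a description. edgeR and DESeq2 called 0 of the 10 (background 0.211% in each); the unadjusted p was under 0.05 in edgeR for the long upstream Foxp1 circRNA alone (background 5.27%) and in DESeq2 for it and Etv6 intron 1 to exon 2 (background 7.81%). The long upstream Foxp1 circRNA differed by 1.53 ± 0.73 (95% interval 0.10 to 2.95, limma adjusted p = 0.624), with 5 of 6 Cirrhosis-PTH livers above the Cirrhosis mean.

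With 4 Cirrhosis-PTH livers at 0 in the former and 4 Cirrhosis livers at 0 in the latter, the size of these 2 differences moved with the pseudocount. With 1 CPM added in place of 0.143, the Etv6 difference was -0.78 and the Foxp1 difference 0.50. The Etv6 alternative exon closed on itself differed by 1.20 ± 0.64 (limma adjusted p = 0.633); it met the listing minimum through Cirrhosis-PTH, so a higher value there is partly fixed by the listing. The Zeb1 difference was -1.06 ± 0.69 (limma adjusted p = 0.646) and -0.46 in edgeR. Nfix differed by 0.70 ± 0.59, Nfib by 0.56 ± 0.61 and the downstream and short upstream Foxp1 circRNAs by 0.79 ± 0.64 and 0.78 ± 0.53. None of these differences exceeded the replicate spread. Nfib and the short upstream Foxp1 circRNA were also at the listing minimum and above 0 most often in Cirrhosis-PTH. The downstream Foxp1 circRNA, at 10 libraries, was above 0 in 3 Control, 2 Cirrhosis and 5 Cirrhosis-PTH livers. Its listing thus also rested in part on Cirrhosis-PTH.

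Differences above 0 were found for 7 of the 10 against 42.0% of all, and the median was 0.63 against -0.17 over all 474. Among the 7 were all members at the listing minimum of 9 libraries: Etv6 alternative exon, Etv6 alternative exon to exon 2, Foxp1 short upstream and Nfib. Each was above 0 most often in Cirrhosis-PTH, as was the downstream Foxp1 circRNA at 10 libraries. This count and median are therefore partly fixed by the listing. Centring moved the median over all to 0.34 and the share above 0 to 63.9%, with 8 of the 10 above 0, Etv6 intron 1 to alternative exon having changed sign. The macrophage marker circRNAs summed to 0.149 to 1.19 CPM in the Cirrhosis-PTH livers and 0.184 to 6.76 CPM in the Cirrhosis livers, which overlap. Their part in the Etv6 values was not tested. No member had groups that did not overlap (background 0.422%).

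The last comparison, Cirrhosis-PTH against Control, shares its groups with the other comparisons. No member passed the adjusted threshold (background 0%) or had an unadjusted p under 0.05 (background 5.27%), nor in edgeR (background 4.01% unadjusted, 0% adjusted) or DESeq2 (background 5.91% and 0%). The Etv6 alternative exon differed by 1.17 ± 0.64 (limma adjusted p = 0.876), Zeb1 by -0.94 ± 0.69 and Etv6 intron 1 to exon 2 by -0.84 ± 0.73 (limma adjusted p = 0.876 for both). The long upstream Foxp1 circRNA differed by 0.33 ± 0.73 and Nfix by 0.20 ± 0.59. Differences above 0 were found for 8 of the 10, all members at the listing minimum among them, against 49.8% of all. The medians were 0.27 and -0.01. Members at that minimum, and the downstream Foxp1 circRNA, were above 0 most often in Cirrhosis-PTH. The count, the member median and the Etv6 alternative exon difference are therefore partly fixed by the listing. No member's groups failed to overlap (background 0.422%).

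**Figure D4:**
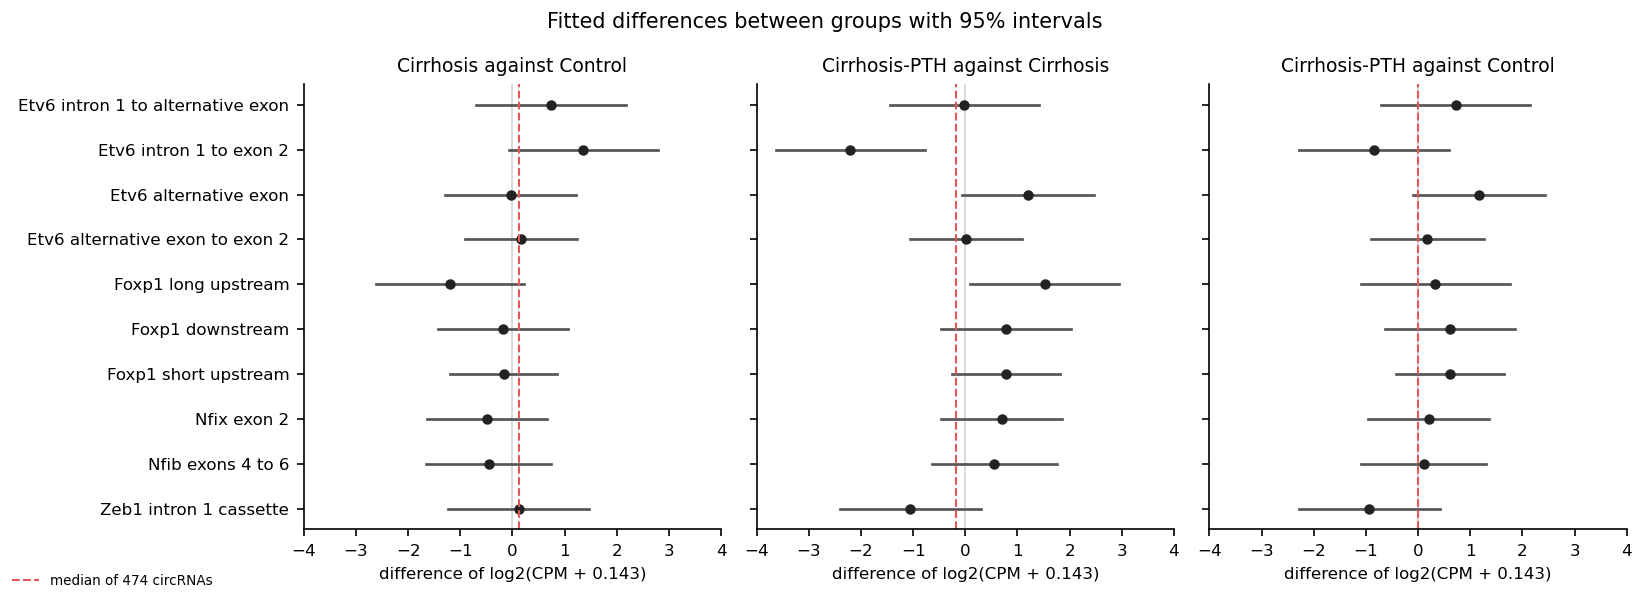
Fitted difference of log2(CPM + 0.143) (horizontal axis) for each of the 10 circRNAs in the 3 comparisons, as estimate (point) and 95% interval (line), with the median of all 474 circRNAs dashed. In Cirrhosis-PTH against Cirrhosis, the intervals of Etv6 intron 1 to exon 2 (-3.64 to -0.77) and Foxp1 long upstream (0.10 to 2.95) leave out 0 before adjustment; no difference passes the adjusted threshold.

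The precision limits these statements. The standard errors of the 30 differences lay between 0.53 and 0.73 on the log2 scale, beside a median of 0.69 over all circRNAs, and 20 of the 30 group means moved by over 1.5 times when the highest library was left out. A difference that misses the threshold here does not show that the levels are equal.

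The other transcription factors measured the same way give the setting. Of 49 listed relatives of the ETS, FOX, NFI and ZEB families, only Elf2, an ETS factor, with 2 circRNAs, and Foxn2, a forkhead factor, were hosts, and none of the 3 passed in any comparison. The main Elf2 circRNA stood at 0.329 ± 0.275, 0.528 ± 0.557 and 0.718 ± 0.726 CPM in Control, Cirrhosis and Cirrhosis-PTH, and Foxn2 at 0.224 ± 0.311, 0.499 ± 0.630 and 0.180 ± 0.184. Of 301 other sequence-specific factors 23 were hosts, with 27 circRNAs. None passed the adjusted threshold. Their differences were above 0 for 13, 12 and 16 of 27 in Cirrhosis against Control, Cirrhosis-PTH against Cirrhosis and Cirrhosis-PTH against Control, with medians of -0.04, -0.16 and 0.22. Over all 474 the shares above 0 were 56.1%, 42.0% and 49.8%, the medians 0.12, -0.17 and -0.01, and 0% passed.

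The most abundant of these was Rfx7, a winged-helix factor, at 1.62 ± 1.15, 2.99 ± 1.95 and 2.22 ± 0.908 CPM in the 3 groups, with a further circRNA at 0.949 ± 1.08, 0.942 ± 0.521 and 0.776 ± 0.471. Thrb, a thyroid hormone receptor, stood at 1.38 ± 0.841, 1.29 ± 0.930 and 0.734 ± 0.585 CPM. Rfx7 was thus close to Nfix in level, and Thrb close to Zeb1. Of 35 corepressors and coactivators, the coactivator Ep300 and the corepressor Ncor1 were hosts, at 0.569 ± 0.305 and 0.224 ± 0.230 CPM in Control, and neither passed in any comparison.

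For the most abundant circRNA of each gene, the circRNAs of other hosts with the most similar profile were found by Pearson r of log2 levels over the 18 libraries, as a description without a test, in libraries that share depth. For Etv6 these were Hivep1 (r = 0.778), itself a zinc finger transcription factor gene, and Gramd1c (r = 0.768). For Foxp1 they were Dock4 (r = 0.745) and Marf1 (r = 0.725), for Zeb1 Rmdn2 (r = 0.756) and Pbrm1 (r = 0.670), for Nfix Hacl1 (r = 0.685) and Fam160b1 (r = 0.678), and for Nfib Msrb1 (r = 0.763) and Slc35d1 (r = 0.762). The median r with all listed circRNAs was 0.05 to 0.14.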

How the data were processed

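Libraries were made from total RNA extracted with TRIzol, with ribosomal RNA removed and a NEBNext kit, per the labels' protocols. The authors deposited CPM of circRNAs, 1 value per circRNA and library. The junctions were called by CIRI, per the file headers. The submitters' processing notes name, without roles, Trim Galore, cutadapt 4.2, Bowtie2, Bowtie 1.3.1, StringTie 2.1.5 and HISAT2 2.2.1, and the build GRCm38. The CIRI version and the total behind each CPM are not given in the sources.

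Every CPM was a whole multiple of the value of 1 read: 100% of 5886 values above 0 came out whole within 0.01. The totals behind the CPM were 2706146 to 29164326. Ends were compared with GENCODE M21, whose transcripts gave the sequences; strand was taken from the host.

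The test was limma 3.58.1 (trend option, R 4.3.3) on log2(CPM + 0.143), 1 model of 18 libraries, 2-sided, adjusted over 474 circRNAs; the pseudocount is the median library's smallest value above 0. It was also run on simulated reads with planted changes and a spread shared by all circRNAs, and no power for these data is read from that run. edgeR 4.0.16 and DESeq2 1.42.0 were run on the recovered reads, which called 0 and 1 circRNAs in Cirrhosis against Control, 1 and 1 in Cirrhosis-PTH against Cirrhosis and 0 and 0 in Cirrhosis-PTH against Control. Other settings were 3 other pseudocounts, 2 filters on low values, median centring, only the 2 groups compared, no trend, a replicate block and leaving out each library.

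Each library is 1 mouse, so the tests set differences against the spread between libraries. That spread holds the variation between mice and counting error at unequal depth. The labels name no batch. Groups and replicate numbers come from the titles, and all members are named. The lists are named by members past the threshold, otherwise up to 3 circRNAs of highest mean. For each gene's most abundant circRNA, the 2 most alike of other hosts are named. Members and lists were chosen with earlier results of these data known.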

Additional observations from a re-analysis of the deposited data

Results flagged for a closer look

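In 10 of the 30 group and circRNA combinations the highest liver exceeded Dixon's 95% critical value against the other 5. Chance flags about 1 in 20 groups of normally distributed values; these values are a few reads at unequal depth, so that rate does not apply and the number of such livers shows nothing by itself.

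Etv6 intron 1 to exon 2 stood at 2.92 CPM in Cirrhosis 5 (16 reads), with the next liver at 0.967, and at 0.715 CPM in Cirrhosis-PTH 5 (9 reads), with the next at 0.128. Etv6 alternative exon to exon 2 had such a liver in each group, Control 6 at 0.575 CPM, Cirrhosis 4 at 1.45 CPM and Cirrhosis-PTH 2 at 0.708 CPM, from 3, 6 and 3 reads. The long upstream Foxp1 circRNA stood at 0.725 CPM in Cirrhosis 4 (3 reads), and the downstream one at 1.18 CPM in Control 2 (4 reads) and 1.03 CPM in Cirrhosis-PTH 5 (13 reads).

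Control 2 was also the highest liver for Nfib, at 1.78 CPM (6 reads), and for Nfix exon 2, at 6.51 CPM (22 reads), where the next Control liver had 2.69.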

How the results depend on the processing

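No member passed the adjusted threshold under any setting that gave it an adjusted p. In Cirrhosis against Control, DESeq2 gave one only for Nfix and Zeb1. The smallest adjusted p was 0.174, for Etv6 intron 1 to exon 2 in Cirrhosis-PTH against Cirrhosis without Cirrhosis-PTH 5. That difference ranged from -2.84 to -0.78 and the long upstream Foxp1 difference from 0.50 to 2.62, both with 1 sign throughout. Of 651 alternative values of the 30 member differences 597 kept their direction and 54 did not, 35 of them on leaving out a library, and these concerned 13 of the 30.

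Over all circRNAs, the number called in Cirrhosis against Control was 0, and 4 among the 63 with a mean of 1 CPM or more, 2 with median centring, 1 without the trend and 1 in DESeq2. In Cirrhosis-PTH against Cirrhosis it was 0, and 1 each without the trend, in edgeR and in DESeq2. On leaving out 1 library it ran from 0 to 1 in these comparisons (1 without Control 3 in the first, and 1 each without Cirrhosis 1, 2 or 3 in the next) and stayed at 0 in Cirrhosis-PTH against Control.

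In Cirrhosis against Control, Zeb1 turned to -0.46 with centring, -0.30 in edgeR and -0.40 in DESeq2, Etv6 alternative exon to exon 2 to -0.42 with centring, and Foxp1 short upstream to 0.045 in edgeR. In Cirrhosis-PTH against Cirrhosis, Etv6 intron 1 to alternative exon turned to 0.19 with a lower pseudocount and 0.49 with centring, and Etv6 alternative exon to exon 2 to -0.071 and -0.065 with the higher pseudocounts, -0.24 in edgeR and -0.52 in DESeq2. In Cirrhosis-PTH against Control, Etv6 alternative exon to exon 2 turned to -0.21 in DESeq2, and Nfib to -0.00071 and -0.015 with the higher pseudocounts, -0.17 in edgeR and -0.37 in DESeq2. The cause was not tested.

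Leaving out 1 library turned 13 differences. In Cirrhosis against Control the ranges were -0.36 to 0.25 for Etv6 alternative exon, -0.37 to 0.49 for Etv6 alternative exon to exon 2, -0.49 to 0.29 for Foxp1 downstream, -0.39 to 0.084 for Foxp1 short upstream, -0.76 to 0.085 for Nfib, -0.93 to 0.17 for Nfix and -0.15 to 0.45 for Zeb1. In Cirrhosis-PTH against Cirrhosis they were -0.38 to 0.62 for Etv6 intron 1 to alternative exon and -0.33 to 0.55 for Etv6 alternative exon to exon 2. In Cirrhosis-PTH against Control they were -0.17 to 0.51 for Etv6 alternative exon to exon 2, -0.031 to 0.75 for Foxp1 long upstream, -0.30 to 0.65 for Nfib and -0.036 to 0.55 for Nfix.

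Same-numbered livers correlated at only -0.0572 to 0.0817. In Cirrhosis against Control the most alike Control liver was the same-numbered one for numbers 1, 3 and 6, but not for 2. In Cirrhosis-PTH against Cirrhosis this held for number 4 only, and in Cirrhosis-PTH against Control for none. Whether the numbers mark pairs was not tested further. With the replicate block 0 circRNAs were called in each comparison, and Zeb1 turned to -0.44 and Etv6 alternative exon to exon 2 to -0.46 in Cirrhosis against Control, and Nfix to -0.20 in Cirrhosis-PTH against Control.

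Depth limits the levels: all group means of the members lay below 1.11 CPM, which a count of 0 allows in the shallowest library, except those of Nfix, of Zeb1 in Control and Cirrhosis and of Etv6 intron 1 to alternative exon in Cirrhosis.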
